A study of Mus musculus with 36 samples.

Results

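Mouse intestinal organoids treated with the recombinant ligand Wnt5a were compared with organoids grown in QCM, a medium conditioned by quiescent fibroblasts. The comparison took every library labelled Wnt5a + IgG and every library labelled QCM + IgG, which gave 6 against 6, or 12 of the 36 libraries of the series. The other 24 belong to complete media + IgG, SCM + IgG (medium of senescent fibroblasts), SCM + anti-Ptk7 and Wnt5a + anti-Ptk7. All organoids came from crypts of the jejunum of C57BL/6 mice, were kept in their media for 2 days, and received either the control antibody IgG or an antibody against Ptk7. In the Wnt5a cultures the ligand was added to IntestiCult, the complete medium. In the QCM cultures IntestiCult was mixed with concentrated serum-free medium from mouse embryonic fibroblasts that had been growth-arrested in low serum. The 2 arms therefore differed by the ligand and by the fibroblast medium at once, and these cannot be told apart from the Wnt5a against QCM contrast alone. The complete media + IgG libraries, with neither, are given beside it. The labels give no age or sex of the mice and do not say which replicate number is which mouse.

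Wnt5a is a secreted glycoprotein of mesenchymal cells that typically leaves β-catenin unchanged and instead alters the shape, orientation and movement of the cells it reaches. Ptk7, a membrane protein with an inactive kinase domain, takes part in its reception. The coactivators YAP and TAZ, which the Hippo kinases hold back, act with TEAD proteins on genes of growth, adhesion and the cytoskeleton. In the intestinal epithelium, injury is followed by a YAP-dependent programme with fetal genes such as Clu and the annexins, while Lgr5+ cells at the crypt base feed the enterocyte, goblet, Paneth, enteroendocrine and tuft lineages in the undisturbed state.

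Counts were listed for 52636 genes, 29759 of them above 0 somewhere, and 15497 passed the filter on low counts. Totals ran from 11220233 to 21029769 counts in Wnt5a and from 11969302 to 15783703 in QCM, and no pair of replicates agreed within sampling noise. Levels are in CPM (counts scaled by the total of the library and its TMM factor), and the lowest, median and highest of 6 libraries are given in that order. Defining markers of other cells were scarce. Of 12 fibroblast markers 2 passed the filter and 0 were called by edgeR, by DESeq2 or at an unadjusted p under 0.05, with a summed level of 3.86, 7.86 and 10.3 CPM in Wnt5a and 4.96, 6.43 and 9.66 in QCM, and Col3a1, Col6a1, Dcn and Thy1 had no count in the 12 libraries. Of 10 epithelial markers 10 passed, and 4 were called higher and 1 lower. Wnt5a replicates 1 and 5 stood apart from the others: over the 12 libraries the first principal component, with 32.8% of the variance, placed them at 78.4 and 52.1, the other Wnt5a libraries between 9.60 and 22.02, and the QCM libraries between −50.6 and −14.4. Of 132 called genes named here, 50 lost their call without these 2 libraries, where 4 Wnt5a libraries remain, and none changed direction. They are given in the paragraphs they belong to.

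The Wnt5a and QCM transcriptomes were separated by 960 genes higher and 488 lower in Wnt5a, called at a fold change over 1.5 and a Benjamini-Hochberg adjusted p under 0.05 in edgeR's quasi-likelihood test. These are 6.19% and 3.15% of all genes tested. The rises were larger than the falls. With a fold change over 2, 514 genes rose and 70 fell, while without any fold cutoff the numbers were 1784 and 1876. The CPM of the 6 Wnt5a libraries lay wholly above those of the 6 QCM libraries for 768 genes (4.96%) and wholly below for 918 (5.92%). The distance between the mean profiles was 68.3 (Euclidean, in log2 CPM over all genes tested), against a mean of 59.9 from a Wnt5a library to its own group mean and 52.9 from a QCM library to its own. An exact two-sided permutation test over the 924 relabelings of the 12 libraries gave p = 0.00216, the smallest these can give. Without Wnt5a replicate 1 the counts fell to 679 higher and 254 lower, and without replicates 1 and 5 to 392 and 174. With voom and limma on quantile-normalized values, which is the study's stated scaling, 829 were higher and 700 lower, so that rises made up 54.2% of the calls in place of 66.3%.

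**Figure D1:**
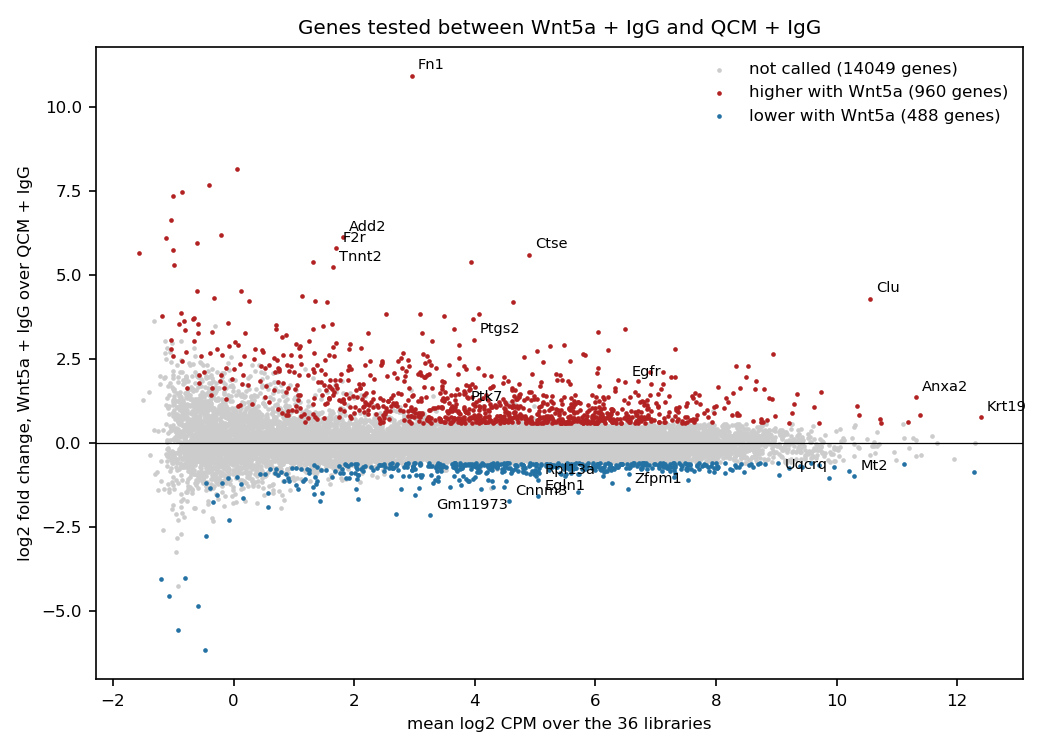
Each point is 1 of the 15497 genes tested, with its mean log2 CPM over the 36 libraries on the x axis and the log2 fold change of Wnt5a + IgG over QCM + IgG on the y axis, and colours mark the 960 genes called higher and the 488 called lower. The rises reach further from 0 than the falls, and of the falls labelled by name Gm11973 is the largest, at −2.14. Fn1, at the top, had no count in QCM, so its plotted fold change depends on the fit.

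Genes were ranked by fold change among the 482 higher and 315 lower genes that were called, did not overlap between the groups and had a mean log2 CPM over 1. The absence of overlap in the ranked genes is therefore fixed by the choice, and genes outside it can have larger fitted values. First among the rises was Fn1, which encodes the matrix glycoprotein fibronectin. It measured 6.79, 16.3 and 35.95 CPM in Wnt5a and had no count in any of the 6 QCM libraries. The difference was at least 517-fold, set against a floor of 3 counts over the QCM group (edgeR's quasi-likelihood test, adjusted p = 2.59e-06). Complete media held a Fn1 count in 2 of 6 libraries and SCM in 3 of 6, where the highest value was 1.30 CPM. Wnt5a also stood above SCM for Fn1 (adjusted p = 0.0015, edgeR's quasi-likelihood test), where 0.297% of all genes were called higher. With the antibody against Ptk7 in place of IgG, the Wnt5a cultures held 8.29, 16.3 and 60.6 CPM.

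Clu, the secreted chaperone clusterin and a marker of revival stem cells, was among the abundant genes of the rises. It measured 2260.2, 2837 and 7382 CPM in Wnt5a against 96.1, 169 and 309.8 in QCM, and the lowest Wnt5a library was several times the highest QCM library. The log2 fold change was 4.30 (SE 0.46, edgeR's quasi-likelihood test, adjusted p = 1.32e-07), a 19.7-fold difference. Clu was also the fetal-like gene that passed the test in QCM over complete media (1.91, adjusted p = 0.0182), where 0.355% of all genes were higher, and Wnt5a stood 6.21 above complete media. Without Wnt5a replicates 1 and 5 it stayed called.

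The other genes among the 6 largest rises of this ranking were Add2, F2r, Ctse, Acsbg1 and Cym. Ctse, the aspartic protease cathepsin E of gastric surface epithelium, measured 29.2, 41.6 and 133 CPM in Wnt5a and 0, 0.994 and 3.43 in QCM (log2 fold change 5.60, SE 0.72, adjusted p = 2.59e-06). F2r, the thrombin receptor, measured 6.46, 8.29 and 18.9 and 0, 0.168 and 0.413 (5.81, SE 0.74, adjusted p = 2.36e-06). Acsbg1, an acyl-CoA synthetase, measured 16.8, 21.9 and 63.8 and 0, 0.732 and 1.68 (5.40, SE 0.71, adjusted p = 3.5e-06). In each the QCM libraries were at or near 0. Add2, a subunit of the membrane skeleton protein adducin, stood at 3.23, 4.34 and 22.3 CPM against 0, 0.0337 and 0.416 (6.14, SE 1.04, adjusted p = 6.89e-05). Cym, which encodes the milk-clotting protease chymosin, stood at 1.67, 2.79 and 10.1 against 0, 0 and 0.413 (5.40, SE 0.71, adjusted p = 3.27e-06), again by edgeR's quasi-likelihood test. For Add2 and Cym the QCM group held 9 and 7 counts in all, so their fold changes are imprecise.

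Of the 15 largest rises so ranked, Tnnt2 (cardiac troponin T), Irx3 (a homeodomain factor), Gm29200, Diras2 (a small GTPase), P2rx2 (an ATP-gated channel), Jam2 (a junctional adhesion molecule), Trim29 and Nt5e (the ectonucleotidase CD73) followed, with log2 fold changes of 5.24 for Tnnt2 down to 3.83 for Nt5e. Clu completes the 15, and of them Diras2 was not called without Wnt5a replicates 1 and 5. Gm29200 is annotated as antisense within Lama3, and since strand-specific counting is not stated its reads cannot be told apart from those of Lama3, a laminin gene that rose by 3.39. Ranked by p, the leading rise was Igfbp4, a secreted carrier of insulin-like growth factors. It measured 125, 137 and 173 CPM in Wnt5a and 29.5, 39.8 and 48.5 in QCM, narrow ranges far apart (1.84, SE 0.14, adjusted p = 2.09e-11, edgeR's quasi-likelihood test). Tnfrsf11b, the decoy receptor osteoprotegerin, came next with 64.9, 76.7 and 146 CPM against 7.75, 10.9 and 19.3 (2.92, SE 0.25, adjusted p = 8.94e-10). P2rx2 (4.19), Clu and Thbs1 (2.79) followed.

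**Figure D2:**
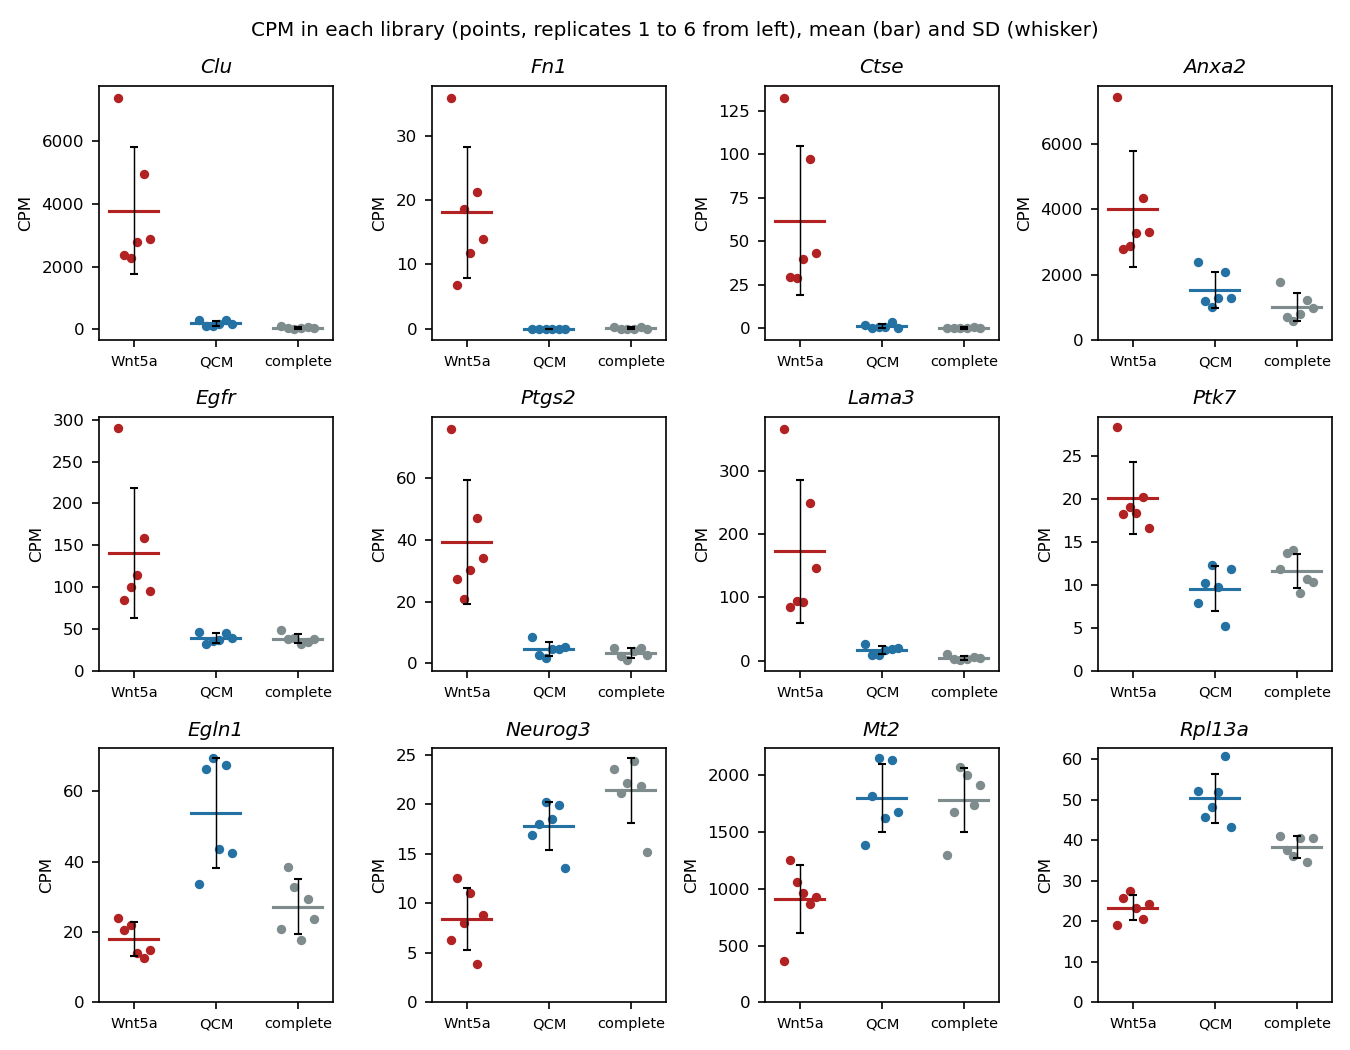
CPM of 12 genes in each library of Wnt5a + IgG, QCM + IgG and complete media + IgG, with points for replicates 1 to 6 from left to right, a bar for the mean and a whisker for the SD (n = 6). Replicate 1 is the highest Wnt5a point for Anxa2, Egfr and Ptk7, and for Egln1 every QCM point stands above every Wnt5a point.

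YAP/TEAD targets were among the lists that moved most. Of 21 tested, 14 rose and 0 fell, with a median log2 fold change of 1.23 against 0.01 over all genes. Over all genes 6.19% rose and 3.15% fell, the shares to set beside the main counts of each list below. Ccn1, a matricellular protein and direct YAP target, measured 72.7, 115 and 226 CPM in Wnt5a against 22.98, 27.5 and 33.4 in QCM, with no overlap (2.24, SE 0.28, adjusted p = 2.24e-06, edgeR's quasi-likelihood test). Its relative Ccn2 measured 43.6, 69.8 and 192 against 2.802, 12.5 and 23.2 (2.75, SE 0.51, adjusted p = 0.000191). F3, the tissue factor that starts coagulation, reached 535, 713 and 1683 against 63.8, 122 and 217 (2.67, SE 0.43, adjusted p = 4.27e-05). Genes that restrain the pathway rose as well: Amotl2, an angiomotin that binds YAP, by 1.12, Lats2, the kinase that phosphorylates YAP, by 1.23, Ajuba, a LIM protein that binds LATS kinases, by 1.25, and Ptpn14, a phosphatase that holds YAP in the cytoplasm, by 2.11 (adjusted p = 0.0438, a call that 12 of the alternatives ended). The TEAD factor gene Tead1 was not called, at 19.5 CPM in Wnt5a and 15.02 in QCM by their medians (adjusted p = 0.361). Without Wnt5a replicate 1, 11 members were called (median 0.98), and without replicates 1 and 5, 8 (median 0.95), Lats2 and Ptpn14 being among those not called.

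Promoters of 4 of these genes and of Ptk7 are printed because they hold the letters GGAATG bound by TEAD factors, read on either strand. Each is the 250 bases before the first listed RefSeq start (GRCm38.p6), written 5′ to 3′ on the gene's strand, with the TEAD letters in capitals (CATTCC where the match is on the other strand). The starts used for Ccn1, Ajuba and Amotl2 did not match a GENCODE transcript start, so distances to the start are uncertain there. Their regions are chr3:145649986-145650235 (−) for Ccn1, chr1:189728018-189728267 (+) for Ptpn14, chr14:54577662-54577911 (−) for Ajuba, chr9:102717554-102717803 (+) for Amotl2 and chr17:46629505-46629754 (−) for Ptk7.
Ccn1: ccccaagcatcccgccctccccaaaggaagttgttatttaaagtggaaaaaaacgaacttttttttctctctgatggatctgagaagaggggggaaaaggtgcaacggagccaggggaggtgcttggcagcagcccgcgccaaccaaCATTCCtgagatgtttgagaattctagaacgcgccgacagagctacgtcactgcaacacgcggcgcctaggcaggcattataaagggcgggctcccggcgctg
Ptpn14: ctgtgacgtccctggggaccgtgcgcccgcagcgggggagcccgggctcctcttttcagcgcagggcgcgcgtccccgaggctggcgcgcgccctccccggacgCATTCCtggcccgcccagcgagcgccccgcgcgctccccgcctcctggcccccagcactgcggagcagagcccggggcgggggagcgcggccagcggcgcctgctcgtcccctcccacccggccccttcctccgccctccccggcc
Ajuba: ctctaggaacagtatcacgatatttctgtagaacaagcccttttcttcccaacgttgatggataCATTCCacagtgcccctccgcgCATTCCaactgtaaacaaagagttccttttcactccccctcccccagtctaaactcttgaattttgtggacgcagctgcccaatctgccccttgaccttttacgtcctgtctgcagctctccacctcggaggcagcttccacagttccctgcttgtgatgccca
Amotl2: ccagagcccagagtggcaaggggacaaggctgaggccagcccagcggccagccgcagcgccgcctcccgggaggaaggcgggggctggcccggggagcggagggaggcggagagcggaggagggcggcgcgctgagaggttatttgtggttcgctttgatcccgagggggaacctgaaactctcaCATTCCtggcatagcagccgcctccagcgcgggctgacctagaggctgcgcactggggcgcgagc
Ptk7: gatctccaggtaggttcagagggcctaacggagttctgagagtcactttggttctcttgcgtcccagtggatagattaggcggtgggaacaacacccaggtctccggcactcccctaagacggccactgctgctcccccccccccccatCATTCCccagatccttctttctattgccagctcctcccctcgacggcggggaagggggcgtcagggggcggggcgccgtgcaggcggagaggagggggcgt
Ajuba held 2 matches and the others 1 each, and the Amotl2 window also held CTTTGAT, the TCF/LEF letters, which did not overlap the TEAD match. A promoter from 250 bases before to 50 after the start was found for 10482 of the genes tested. GGAATG was in 7 of the 14 YAP/TEAD list members with a promoter. These 14 are not the 14 that rose, since Axl and Crim1, which held the letters, were not called. The list was chosen for targets of TEAD, so nothing is read from its share. The letters were in 12.2% of all promoters, 13.5% of those of genes that rose and 13.7% of those of genes that fell. CTTTGAT was in 2.65%, 2.48% and 2.56% of the promoters of risen, fallen and all genes. The AP-1 letters TGANTCA were in 7.51%, 6.21% and 5.14%, and the CDX letters TTTATGG in 1.47%, 3.42% and 1.55%. A match is only a run of letters, and nothing about binding was measured.

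Fetal-like and revival genes rose together. Of 17 tested, 14 were higher and 0 lower, with a median log2 fold change of 1.37. Anxa8, an annexin of squamous and fetal epithelia, measured 63.3, 87.4 and 239 CPM in Wnt5a and 7.83, 15.04 and 32.3 in QCM, without overlap (2.67, SE 0.45, adjusted p = 6.7e-05, edgeR's quasi-likelihood test). Msln, the surface protein mesothelin, measured 458, 652 and 1710.2 against 108, 189 and 435 (1.86, adjusted p = 0.00391), and Anxa1 506, 699 and 1386 against 135, 239.99 and 424 (1.61, adjusted p = 0.00218). Basp1 (3.27), Ly6d (1.40), Anxa3 (1.40), Anxa2 (1.37), Il1rn (1.23) and Krt7 (1.10) also rose. Ly6a (Sca-1), the usual marker of the regenerating epithelium, did not pass in this fit: its Wnt5a values were 205, 214 and 326 CPM and its QCM values 87.98, 133 and 205, a difference of 0.72 with an adjusted p of 0.0684. Il33 was likewise not called (1.57, adjusted p = 0.0725). With the replicate block both were called (edgeR, adjusted p = 0.000125 and 0.0167), and over all alternatives Ly6a was called in 8 and Il33 in 4. The list then had 16 of 17 higher with the block and 15 with DESeq2 or voom. Without Wnt5a replicate 1, 11 fetal genes were called with a median of 1.13, and without replicates 1 and 5, 5 with a median of 1.02. Msln, Ly6d, Anxa2, Anxa3, Il1rn and Krt7 were then not called.

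Matrix, laminin and integrin genes gave the longest list of rises, with 19 of 28 higher, 0 lower and a median of 1.21. Genes of laminin, which anchors epithelia to their basement membrane, were among them. Lama3 measured 84.9, 121 and 367 CPM against 9.38, 17.3 and 25.8 in QCM (3.39, adjusted p = 1.68e-05, edgeR's quasi-likelihood test). Lamb3 measured 314, 361 and 749 against 127, 177 and 195 (1.34, adjusted p = 1.34e-05). Neither overlapped between the groups. Lamb1 was called too, with overlapping groups and a mean level too low for the ranking (4.53, SE 1.32, adjusted p = 0.0114). The laminin-binding integrin gene Itgb4 rose by 1.23, the fibronectin-binding integrin genes Itgb6 and Itgav by 1.51 and 1.17, and the collagen receptor gene Itga2 by 1.04. Thbs1, the matricellular protein thrombospondin 1, measured 113, 151 and 267 CPM against 11.98, 23.1 and 46.1 (2.79, SE 0.30, adjusted p = 2.12e-07). The type IV collagen genes Col4a1 and Col4a2 rose by 2.06 and 1.89, and their highest values, 218 and 207 CPM, were both in Wnt5a replicate 1. The list had 17 calls and a median of 1.06 without that library, and 11 and 0.84 without replicates 1 and 5, when neither collagen gene was called.

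Keratin and cornification genes rose in 13 of 21 cases, with 0 lower and a median of 0.92. The simple keratins of the gut rose modestly, Krt19 by 0.78 from a QCM median of 3797 CPM, Krt18 by 0.85 and Krt8 by 0.83. Voom on quantile-normalized values did not call Krt18 or Krt19. Genes of stratified epithelia changed more from low levels: the basal keratin gene Krt14 had a Wnt5a median of 2.898 CPM and a QCM median of 0.630 (2.61, edgeR's quasi-likelihood test, adjusted p = 0.00514), Krt6a rose by 1.88 and the desmosomal cadherin gene Dsg3 by 2.05. Emp1, an epithelial membrane protein, measured 426, 585 and 1184 CPM against 91.1, 182 and 244, without overlap (1.96, adjusted p = 6.21e-06). Counts of this list were 9 without Wnt5a replicate 1 (median 0.81) and 4 without replicates 1 and 5 (median 0.73), and of the genes named here Emp1 stayed called in the latter. Of 15 genes of gastric epithelium only 5 passed the filter on low counts, and each of them rose: Ctse, Vsig1 (2.44), the trefoil factor gene Tff1 (2.34), the tight-junction gene Cldn18 (1.80) and Anxa10 (1.68). A gene can pass that filter through the Wnt5a libraries, so this count has no weight of its own. Without replicates 1 and 5, Ctse and Vsig1 were called, and the median was 1.86 in place of 2.34.

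An unadjusted p under 0.05 was reached by 5399 of the 15497 genes tested, in either direction. At that limit 0 members were lower in the YAP/TEAD, fetal-like, matrix, keratin, gastric, tuft and EGFR lists. In the NF-kB and immediate early lists 2 each were lower. Against complete media, 15 YAP/TEAD, 16 fetal-like, 20 matrix and 17 keratin genes were higher with Wnt5a, out of the same numbers tested and against 8.29% of all genes, and 1 matrix gene was lower. In QCM against complete media, where 0.355% of all genes rose and 0.0194% fell, these lists had 0, 1, 1 and 0 genes higher, 0 lower and medians of 0.30, 0.50, 0.20 and 0.52. The 3 contrasts share libraries, so the values are given side by side.

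**Figure D3:**
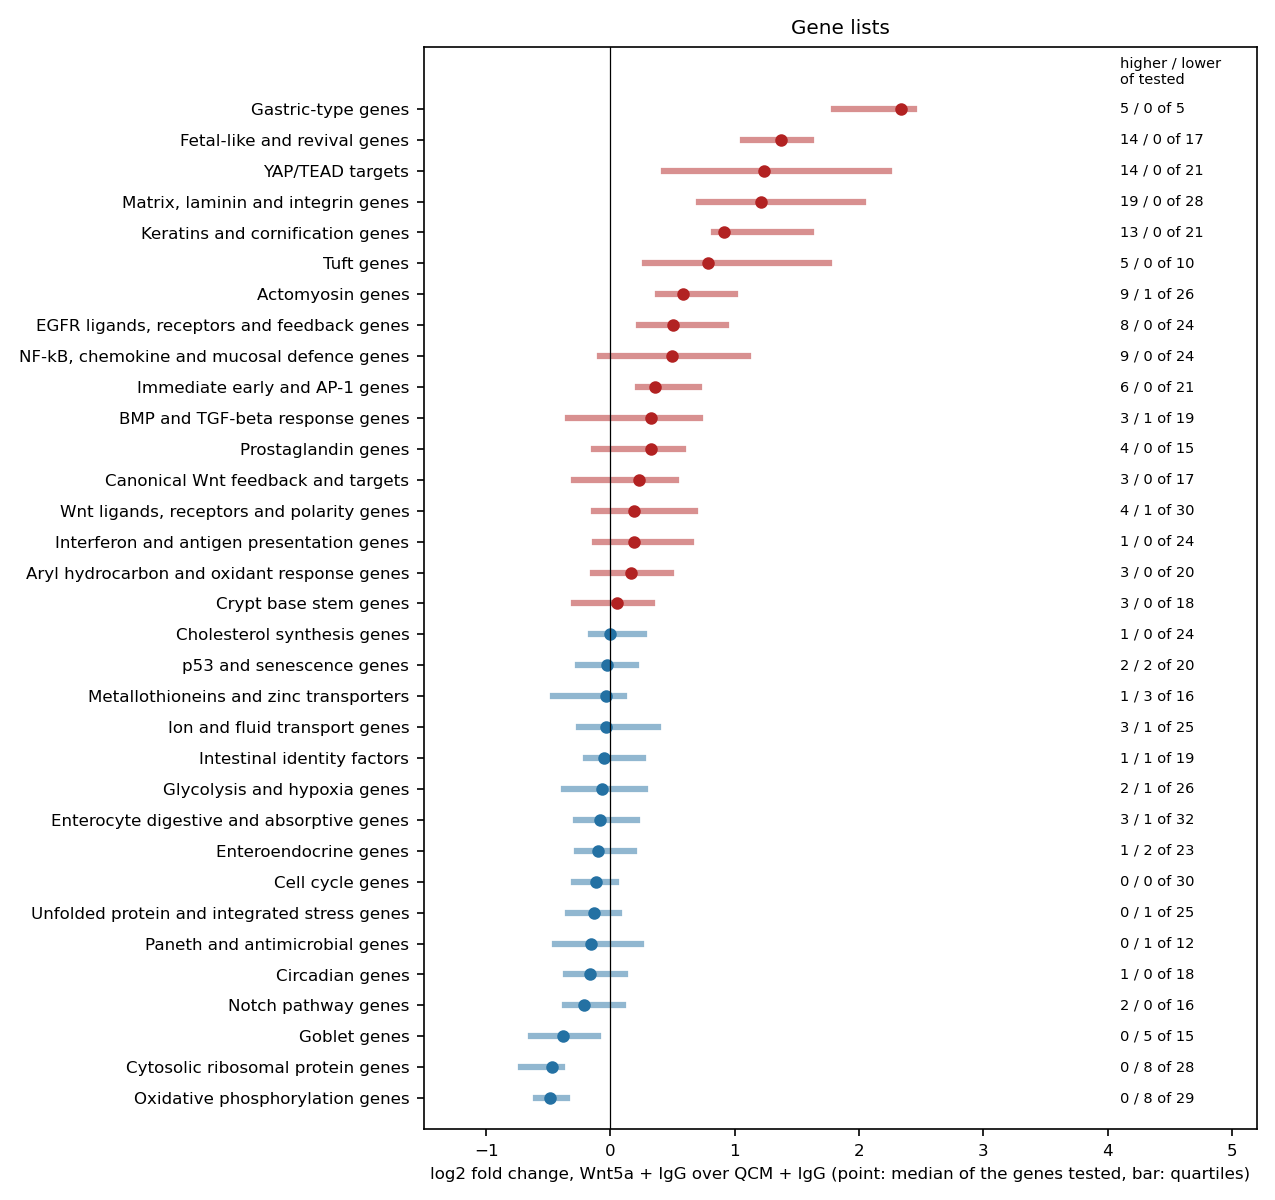
Median (point) and quartiles (bar) of the log2 fold change of Wnt5a + IgG over QCM + IgG over the genes tested of each of 33 lists, with the number called higher and lower of those tested at the right. The matrix, YAP/TEAD, fetal-like and gastric lists have medians over 1, and the oxidative phosphorylation and ribosomal lists lie lowest, at −0.49 and −0.47.

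Growth factor and inflammatory signalling genes rose in part. Of 24 EGFR ligands, receptors and feedback genes 8 were higher and 0 lower, with a median of 0.50. The receptor gene Egfr measured 84.8, 108 and 290.1 CPM in Wnt5a and 32.8, 38.5 and 47.1 in QCM, without overlap (1.82, SE 0.31, adjusted p = 6.78e-05, edgeR's quasi-likelihood test). The ligand genes Btc and Areg rose by 1.06 and 0.94. Of 24 NF-kB, chemokine and mucosal defence genes 9 rose and 0 fell, again with a median of 0.50. Tnfaip3, which encodes the NF-kB inhibitor A20, rose by 1.37 (adjusted p = 2.6e-05), the alarmin gene Il1a by 2.34 and the chemokine gene Cxcl16 by 1.14. Immediate early genes rose in 6 of 21 cases, Fos by 1.12 and Fosl1 by 1.17. Without Wnt5a replicates 1 and 5 these lists held 3, 3 and 0 calls, with medians of 0.405, 0.44 and 0.35, the last from 0.36, and Areg, Il1a, Cxcl16, Fos and Fosl1 were not called.

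Actomyosin genes, the machinery of contractility, rose in 9 of 26 cases and fell in 1, with a median of 0.59. Flna, the actin crosslinker filamin A, measured 197, 272 and 606 CPM in Wnt5a and 101, 109 and 132 in QCM, without overlap (1.504, SE 0.30, adjusted p = 0.000365, edgeR's quasi-likelihood test). The focal adhesion gene Vcl rose by 1.04. The member that fell was Mylk3, a myosin light chain kinase known from cardiac muscle, with 1.23, 4.31 and 7.64 CPM against 8.55, 10.9 and 20.2 (−1.54, adjusted p = 0.00184). Without replicates 1 and 5, 4 genes were higher and 1 lower, Mylk3, with a median of 0.44.

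Prostaglandin and tuft cell genes overlapped through Ptgs1, the constitutive cyclooxygenase. Ptgs1 measured 2.63, 3.43 and 6.39 CPM in Wnt5a and 0.165, 0.444 and 1.303 in QCM (2.61, adjusted p = 0.00194). The inducible cyclooxygenase gene Ptgs2 measured 21.03, 32.4 and 76.1 against 1.69, 4.698 and 8.51, without overlap (3.08, SE 0.46, adjusted p = 1.68e-05, edgeR's quasi-likelihood test). Of 15 prostaglandin genes 4 rose and 0 fell, where 6.19% of all genes rose and 3.15% fell. Of 10 tuft genes 5 rose and 0 fell, with a median of 0.79. Avil, the tuft actin-binding protein advillin, measured 7.72, 11.9 and 18.1 CPM against 2.09, 2.46 and 3.58 (2.25, SE 0.31, adjusted p = 5.43e-06), and Trpm5, the cation channel of tuft cell taste signalling, 1.92, 6.21 and 16.5 against 0.909, 2.096 and 3.16 (1.76, adjusted p = 0.00192). Dclk1 (1.74) and Plcg2 (0.93) were the other 2, and 8 of the alternatives ended the call of Dclk1. In bulk RNA more cells of a type and more RNA per cell cannot be told apart. Without replicates 1 and 5 the tuft list held 3 calls, without Trpm5 and Plcg2, at a median of 0.85, and the prostaglandin list 2.

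TGF-β and aryl hydrocarbon genes moved singly. Tgfb1, the TGF-β1 ligand, measured 5.18, 6.87 and 11.2 CPM in Wnt5a and 1.17, 1.86 and 2.15 in QCM, without overlap (2.04, SE 0.31, adjusted p = 1.65e-05 by edgeR's quasi-likelihood test). Its feedback inhibitors Smad7 and Skil rose by 1.53 and 1.22. Bmp7 went the other way, with 22.2, 41.9 and 49.2 CPM against 53.5, 67.2 and 74.2 (−0.73, adjusted p = 0.00111). These were 3 higher and 1 lower of 19, where 6.19% of all genes were called higher and 3.15% lower. The receptor gene Ahr rose by 0.98 and its target Cyp1b1 by 2.43, and Aldh1a3, a retinoic acid synthesis enzyme on the same list, measured 13.96, 15.8 and 39.5 CPM against 0.847, 1.497 and 3.57 (3.38, adjusted p = 0.00012), making 3 higher and 0 lower of 20. With Wnt5a replicates 1 and 5 left out, the TGF-β list had 3 higher and 0 lower and the aryl hydrocarbon list 2 higher, as Bmp7 and Cyp1b1 were not called. The calcium-activated chloride channel gene Ano1 rose by 1.96 (adjusted p = 4.27e-05).

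Among the Wnt genes, Ptk7 itself was higher with the ligand. Ptk7, the pseudokinase co-receptor, measured 16.7, 18.8 and 28.4 CPM in Wnt5a against 5.32, 10.1 and 12.4 in QCM, and the groups did not overlap (1.07, SE 0.25, adjusted p = 0.00228, edgeR's quasi-likelihood test). It was also above complete media (0.79, adjusted p = 0.0216), in which comparison 8.29% of genes rose, while QCM against complete media gave −0.28 (adjusted p = 0.729). Vangl1, a planar polarity protein, rose by 1.18 and Daam1, a formin downstream of Dishevelled, by 0.71. Mmp14, a protease able to cleave Ptk7, rose by 0.72 (adjusted p = 0.0454), a call that 15 of the alternatives ended. Wnt3, the ligand that Paneth cells supply to stem cells, was lower, with 5.83, 10.04 and 11.7 CPM against 15.1, 15.9 and 17.2 (−0.77, adjusted p = 0.00483). These were the 4 higher and 1 lower of 30 Wnt ligand, receptor and polarity genes, beside 6.19% and 3.15% of all genes. When Wnt5a replicates 1 and 5 were left out, 2 were higher and 1 lower, with Daam1 and Mmp14 not called. The receptor gene Fzd7 measured 25.6, 33.6 and 41.3 CPM in Wnt5a and 27.1, 38.99 and 43.8 in QCM, overlapping ranges (−0.11, adjusted p = 0.761), and Ror2 likewise (−0.13, adjusted p = 0.568). The Wnt5a transcript had no count in the Wnt5a libraries and a count in 2 of 6 QCM libraries; the ligand was added as protein, so this does not check the labels.

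β-catenin targets and crypt base genes held 4 calls between them, all higher. Of 17 canonical Wnt feedback genes 3 rose and 0 fell (median 0.23), and of 18 crypt base genes 3 rose and 0 fell (median 0.06), where 6.19% of all genes rose. Against complete media the first list had 6 higher and 0 lower (median 0.49) and the second 3 and 1 (median 0.03), where 8.29% of all genes rose and 1.88% fell. Cd44 and Tnfrsf19 are on both lists and rose by 1.11 and 1.83. The others were Sp5 (0.65), a feedback repressor whose call 10 of the alternatives ended, and Gkn3 (0.80), which QCM also raised over complete media (1.35, adjusted p = 0.00595). Without Wnt5a replicates 1 and 5 the lists had 1 and 2 higher, and Tnfrsf19 and Sp5 were not called. Axin2, the standard β-catenin readout, measured 18.5, 26.1 and 33.4 CPM in Wnt5a and 26.1, 33.1 and 34.9 in QCM (−0.29, SE 0.17, adjusted p = 0.241, edgeR's quasi-likelihood test). Lgr5, the receptor that marks crypt base columnar cells, measured 134, 178 and 194 against 91.3, 172 and 220.1 (0.08, SE 0.22, adjusted p = 0.837). Both ranges overlapped, and differences of the size of these standard errors could not be seen. Of 30 cell cycle genes 0 were called in either direction (median −0.11), with Mki67 at 0.18 (adjusted p = 0.269). At an unadjusted p under 0.05, which 5399 of the 15497 genes tested reached in either direction, 14 were lower and 1 higher. DESeq2 and voom with TMM called 0, and voom on quantile-normalized values called 1 lower.

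On the lower side the changes were smaller. By the same ranking the 6 largest falls were Gm11973, Rbp7, Cnnm3, Rpph1, Egln1 and Mylk3. Gm11973, an antisense transcript, measured 2.22, 4.02 and 8.19 CPM in Wnt5a and 9.57, 19.2 and 25.2 in QCM (−2.14, SE 0.39, adjusted p = 0.000138, edgeR's quasi-likelihood test). It lies opposite Purb, whose level differed by −0.21 (adjusted p = 0.289), and reads of the 2 cannot be told apart where they overlap. Cnnm3, a magnesium transport mediator, measured 7.65, 9.25 and 19.5 against 25.5, 38.7 and 41.3 (−1.72, SE 0.32, adjusted p = 0.000192). Egln1, the oxygen sensor that marks HIF-α for degradation, measured 12.7, 17.8 and 24.1 against 33.7, 55.02 and 69.4 (−1.58, SE 0.28, adjusted p = 0.000117). Rbp7, a retinoid-binding protein, measured 0, 1.36 and 2.499 against 2.56, 4.33 and 6.45 (−1.73, SE 0.42, adjusted p = 0.00252). Rpph1, the RNA of the tRNA-processing ribozyme RNase P, measured 0.675, 1.91 and 2.38 against 4.71, 5.36 and 7.67 (−1.66, SE 0.30, adjusted p = 0.000127). The remaining 9 of the 15 largest falls, from Ppef1 (−1.49) to Glipr2 (−1.31), included the ubiquitin ligase gene Znrf2 (−1.44), the transcription cofactor genes Tada2b (−1.36), Zfpm1 (−1.36) and Mta1 (−1.31), and the cytochrome oxidase subunit gene Cox6b2 (−1.35), Cyp2c52-ps (−1.37) and 6330403L08Rik (−1.31). Of these, Cyp2c52-ps is a pseudogene that may share reads with Cyp2c genes, and 6330403L08Rik lies opposite Pdgfa, which was itself lower by −0.77. Tada2b overlaps Grpel1 on the opposite strand, a more abundant gene that was lower by −0.42 (adjusted p = 8.19e-05), so its reads are uncertain in the same way. Ppef1 was not called without Wnt5a replicates 1 and 5.

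Some of the lower genes lay above complete media in QCM. Gm11973, Tada2b, Egln1, Znrf2 and Cnnm3 were picked for the largest values of QCM over complete media among the genes higher in QCM than in Wnt5a, so those values, 0.92 to 1.56, are a description. Of the 5, Gm11973 passed the test of QCM over complete media, a count from which nothing is read since the same contrast picked them. Against complete media the Wnt5a cultures differed by −0.80 for Cnnm3 to −0.37 for Tada2b. By edgeR's quasi-likelihood test 0 of 5 were called, where 1.88% of all genes were called lower. At an unadjusted p under 0.05, 2 of 5 were lower, and the share of all genes at that looser limit is not given. Median levels of Egln1 were 17.8 CPM with Wnt5a, 26.7 with complete media, 55.02 with QCM and 40.9 with SCM, and those of Cnnm3 9.25, 20.4, 38.7 and 30.2 in the same order. By their medians, these 2 genes were higher in both conditioned media than in complete media or Wnt5a. Wnt5a was below SCM for Gm11973 (−1.55), Cnnm3 (−1.46), Egln1 (−1.18) and Znrf2 (−1.22), 4 of the 5 by the test (0.394% of all genes were lower). The genes were chosen as low in the same Wnt5a libraries, so nothing is read from this count either.

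Of the enteroendocrine genes, the transcription factor genes Neurog3 and Insm1 were lower with Wnt5a. Neurog3, which starts endocrine fate, measured 3.93, 8.41 and 12.6 CPM in Wnt5a and 13.6, 18.2 and 20.2 in QCM, without overlap (−1.07, SE 0.20, adjusted p = 0.000249, edgeR's quasi-likelihood test). Insm1, which acts after it, measured 3.58, 5.504 and 7.97 against 10.1, 12.2 and 17.6, also without overlap (−1.18, SE 0.25, adjusted p = 0.000969). Both stayed called without Wnt5a replicates 1 and 5, and both were also below complete media (−1.33 and −1.06). The list as a whole had 1 higher and 2 lower of 23 (median −0.10), beside 6.19% and 3.15% of all genes. The rise was Cpe, a prohormone-processing carboxypeptidase (2.12).

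Some secretory genes of the goblet lineage were called lower, by small amounts. Of 15 goblet genes 0 rose and 5 fell, with a median of −0.38, where 6.19% of all genes rose and 3.15% fell. Tff3, the goblet trefoil factor, measured 281, 552 and 754 CPM in Wnt5a and 772, 835 and 1031 in QCM (−0.68, SE 0.16, adjusted p = 0.00253, edgeR's quasi-likelihood test). Spink4 (−0.72), Tpsg1 (−0.72), Spdef (−0.70), the factor of goblet maturation, and Zg16 (−0.59) were the other 4. The call of Zg16 was ended by 16 of the alternatives, among them DESeq2, both voom fits and the replicate block. The main mucin gene Muc2 and the secretory master factor Atoh1 were not called (0.47 with adjusted p = 0.162, and −0.48 with adjusted p = 0.0899). Against complete media 0 goblet genes were called, and 2 were lower at an unadjusted p under 0.05. Without Wnt5a replicate 1, 0 of the 5 were called and the median was −0.25, and without replicates 1 and 5, 0 and −0.18. With the trend on exon length removed, 1 goblet gene was called, Spdef, and the median was −0.23. Of 12 Paneth genes 1 fell, Itln1, an intelectin (−0.62), and Lyz1 gave −0.56 (adjusted p = 0.00123), under the fold cutoff but called in 4 of the alternatives. Of 32 enterocyte genes 3 rose, among them Krt20 (1.47) and Apob (1.16), and Apoa1 fell (−0.66). These counts are near the 6.19% and 3.15% of all genes called higher and lower. Without Wnt5a replicates 1 and 5, 1 enterocyte gene was higher and 0 lower and 0 Paneth genes were called, so that Krt20, Apoa1 and Itln1 lost their calls. The hindgut and intestinal identity factor Cdx1 was lower, with 285, 444 and 474 CPM against 558, 629 and 693 (−0.59, SE 0.09, adjusted p = 1.83e-05), near the fold cutoff, a call that 13 of the alternatives ended, among them DESeq2 and the fits without Wnt5a replicate 1 or 5. Cdx2 was not called (−0.38, adjusted p = 0.153).

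The zinc-binding metallothionein genes Mt1 and Mt2 were lower as a pair. Mt1 measured 1563, 3863 and 5224 CPM in Wnt5a against 5153, 6669.9 and 7953 in QCM, and Mt2 364, 945 and 1254 against 1380.5, 1746 and 2147, the latter without overlap. The log2 fold changes were −0.86 (SE 0.20, adjusted p = 0.00162) and −0.99 (SE 0.22, adjusted p = 0.00111, edgeR's quasi-likelihood test). Both were as far below complete media (−0.85 and −0.97), and QCM differed from complete media by 0.02 and 0.01, neither called. The zinc importer gene Slc39a5 fell with them (−0.66), and Slc39a10 rose (0.96). That made 1 higher and 3 lower of 16, beside 6.19% and 3.15% of all genes. Mt1 and Mt2 were the calls on this list without Wnt5a replicates 1 and 5.

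Some ribosomal and respiratory genes were called lower, by small amounts. Of 28 cytosolic ribosomal protein genes 0 rose and 8 fell, with a median of −0.47. Of 29 oxidative phosphorylation genes 0 rose and 8 fell, with a median of −0.49. Over all genes 6.19% rose and 3.15% fell, and in the set of shortest genes described below 6.43% fell. Without Wnt5a replicate 1 the oxidative list held 1 call. Rps14 measured 96.7, 124 and 154 CPM in Wnt5a and 234, 278 and 293 in QCM, and Rplp1 101, 129.8 and 139.98 against 201, 232 and 267, both without overlap (−1.10 and −0.89, adjusted p = 1.21e-05 and 4.82e-06, edgeR's quasi-likelihood test). Rpl13a had the smallest p of the falls, with 19.1, 23.8 and 27.4 CPM against 43.3, 50.03 and 60.6 (−1.10, SE 0.13, adjusted p = 9.76e-07). Next by p were Lsm4 (−0.75) and Snrnp25 (−0.98), parts of the RNA-splicing machinery, Uqcrq (−0.95), a subunit of respiratory complex III, and Nt5c (−0.63), a nucleotidase. The call of Nt5c was ended by 7 of the alternatives, among them the fit without Wnt5a replicates 1 and 5. Cox4i1, a cytochrome oxidase subunit, measured 647, 828 and 875 CPM against 1106, 1294 and 1411 (−0.70, adjusted p = 2.59e-06). With the trend on exon length removed, Lsm4 and Cox4i1 were not called. Against complete media the ribosomal list had a median of −0.23, with 0 called lower and 11 lower at an unadjusted p under 0.05. The oxidative list had a median of −0.39, with 1 called lower and 23 of 29 lower at an unadjusted p under 0.05. In that contrast 1.88% of all genes were called lower, and the share of all genes at the unadjusted limit is not given. For QCM over complete media the medians were 0.35 and 0.07. Ribosomal protein genes have many pseudogene copies, so their counts are uncertain.

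Genes that fell had a shorter exon length and a higher GC content than all genes by their medians. Exon length is the union of all exons of a gene, and GC content is that of its longest transcript. The median exon length was 1762 bases for genes that fell, 4764 for genes that rose and 3740 for all tested, and for the 15 largest falls it was 3104. Split by exon length into 3 sets of equal size, 3.99% of the shortest genes rose and 6.43% fell, against 6.26% and 2.11% of the middle set and 8.36% and 0.911% of the longest. The shortest set held 332 of the 488 falls. Split by GC content in the same way, 1.20% of the genes of lowest GC fell, 3.32% of the middle set and 4.94% of those of highest GC. With each library's trend on exon length removed, 890 genes were higher and 303 lower. The ribosomal list then held 7 falls and the oxidative list 2, at medians of −0.40 and −0.36. Without Wnt5a replicate 1 their medians were −0.42 and −0.40, with 8 ribosomal falls, and without replicates 1 and 5 they held 8 and 1 falls, at medians of −0.35 each. Mitochondrially encoded genes took 0.434, 0.561 and 0.861% of the counts in Wnt5a and 0.282, 0.359 and 0.708% in QCM. Whether length had a part in the falls was not tested beyond that.

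**Figure D4:**
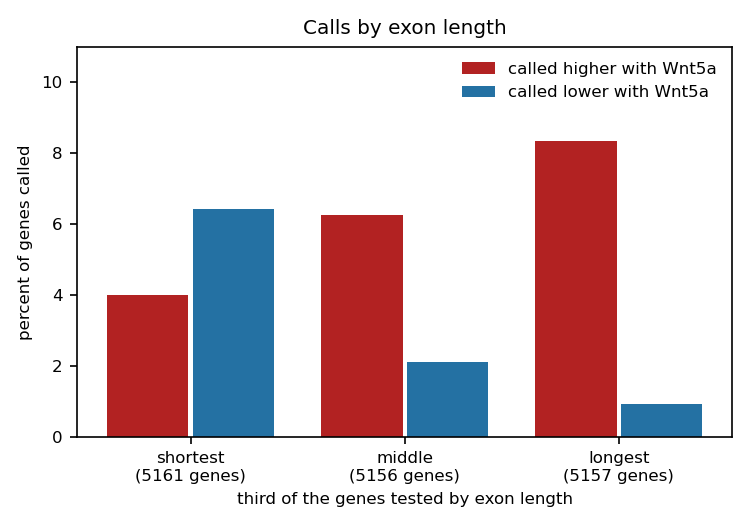
Percent of genes called higher and lower with Wnt5a in 3 sets of the genes tested, of equal size and ordered by exon length (bars from 0). The percent called higher goes from 3.99% in the shortest set to 8.36% in the longest, and the percent called lower from 6.43% to 0.911%.

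Other programmes are given with their calls, to be set beside 6.19% of all genes called higher and 3.15% called lower. Cholesterol synthesis (1 higher, 0 lower of 24), interferon and antigen presentation (1 and 0 of 24), the unfolded protein response (0 and 1 of 25, Sesn2), Notch genes (2 and 0 of 16, Jag1 and Notch2), circadian genes (1 and 0 of 18) and glycolysis and hypoxia genes (2 and 1 of 26) had medians between −0.21 and 0.19. At an unadjusted p under 0.05, which 5399 of the 15497 genes tested reached, 11 genes of the unfolded protein response were lower and 1 higher. Against complete media 5 of its genes were called lower, where 1.88% of all genes were. Among p53 and senescence genes 2 rose and 2 fell of 20, the falls being Gdf15 (−0.84), a stress cytokine, and Bax (−0.60), a death effector. Ion and fluid transport genes gave 3 higher and 1 lower of 25, the fall being Guca2a (−0.64), the hormone guanylin. Without Wnt5a replicates 1 and 5, Sesn2, Notch2, Bax and Guca2a were not called, the cholesterol, interferon and circadian lists had 0 calls, the Notch list 1 higher, glycolysis and hypoxia 1 and 1, and ion transport 1 higher and 0 lower. Beside the epithelial and fibroblast markers, 4 of 10 immune markers passed the filter with 0 called (1 at an unadjusted p under 0.05), at a summed level of 30.5, 37.8 and 43.99 CPM in Wnt5a and 26.04, 39.3 and 50.7 in QCM. Endothelial, neuronal, glial and smooth muscle lists had at most 1 gene tested and 0 called.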

How the data were processed

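RNA of 36 organoid cultures, 6 for each of 6 conditions, was sequenced as single-end reads of 50 bases from libraries made with a full-length cDNA kit (Smart-Seq v4) and Nextera XT. After filtering in HTSeqGenie, reads were aligned by the authors with GSNAP (2013-11-01, per the submitters' processing notes) to mm10. The deposited values are whole-number counts per gene, not normalized. Their methods describe counting reads within coding sequences. The gene annotation and whether strand was used are not given in the sources used here. Totals ran from 9581589 to 21029769 counts per library. At this depth the spread between replicates, amplification included, exceeded counting error for genes of average abundance.

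Groups and replicate numbers came from the labels. The counts were analysed in R 4.3.3 with edgeR 4.0.16: filterByExpr, TMM scaling (factors 0.908 to 1.03), and the quasi-likelihood test in 1 model of 6 group means over the 36 libraries. Calls needed a fold change over 1.5 and an adjusted p under 0.05 over all genes tested. Contrasts of either arm with complete media or SCM share libraries with the main one. Alternatives used limma 3.58.1, DESeq2 1.42.0, other scalings and filters, a replicate block and each library left out. Those without Wnt5a replicates 1 and 5, and with length or GC trends removed, were added after the data had been seen. The scripts were tested on simulated data. The methods of the study take an individual value to stand for a mouse unless stated otherwise. The labels do not name the mouse behind each library.

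The groups, the gene lists and their members were chosen with earlier results of these data known. Genes named are the 15 largest rises and falls among called genes with groups that do not overlap and a mean log2 CPM over 1, as well as the 5 smallest p values in each direction, Wnt5a, Ptk7 and Fzd7, list members, and 5 genes higher in QCM with the largest excess over complete media. Promoters are from RefSeq (GRCm38.p6), and names from GENCODE.

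Libraries with the same replicate number had correlations of their deviations from the group means between −0.0091 and 0.271, over 0.1 in 2 of 6 pairs, so the number was not taken as pairing them. Some genes are not reported here.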

Additional observations from a re-analysis of the deposited data

Results flagged for a closer look

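In a group of 6, a library was taken to stand apart where its gap to the nearest other library, over the range of the group, exceeded Dixon's critical value for 6, which chance passes in about 1 of 20 groups. Of 294 groups of values, 31 did so, 22 in Wnt5a and 9 in QCM, and 20 of them were Wnt5a replicate 1. The causes were not tested.

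Wnt5a replicate 1 was the highest of its group, in CPM, for Krt19 (11867), Anxa2 (7414), Krt8 (2837), Anxa3 (543), Ly6a (326), Ajuba (303), Itgb6 (296), Egfr (290.1), Col4a1 (218), Col4a2 (207), Dsg3 (135), Jag1 (109), Ahr (92.1), Aldh1a3 (39.5), Ptk7 (28.4), Cnnm3 (19.5), Tnnt2 (18.3) and Krt6a (13.9). For Jag1 the other 5 libraries lay between 38.9 and 49.1 CPM, and for Ptk7 between 16.7 and 20.3, above the highest QCM library (12.4). It was the lowest for Lsm4 (162) and Slc39a5 (40.5). Cnnm3 was a gene lower with Wnt5a, so here replicate 1 lay toward QCM, where for the genes that rose it lay away from QCM.

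Among the other Wnt5a libraries, replicate 5 was highest for Cym (10.1 CPM) and replicate 2 for the share of mitochondrially encoded counts (0.861%, against 0.4345% to 0.575% in the other 5). In QCM, replicate 1 was highest for Cldn18 (1.65), Tnnt2 (0.992) and Cym (0.413), replicate 2 was highest for Atoh1 (22.1) and Dclk1 (3.00) and lowest for Tgfb1 (1.17), and replicate 5 was highest for Tff3 (1031) and Fos (115) and lowest for Lamb3 (127).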

How the results depend on the processing

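The numbers of higher and lower genes (960 and 488) depended on the cutoff and on 2 Wnt5a libraries, and that of lower genes also moved with the length trend removed. They were 1784 and 1876 without a fold cutoff, 514 and 70 at a fold change over 2, and 155 and 13 with glmTreat, which tests against a fold change of 1.5 and so counts fewer genes by construction. Leaving out 1 library gave 679 to 1206 higher and 254 to 610 lower, with the lowest of each without Wnt5a replicate 1. Without Wnt5a replicates 1 and 5, 392 and 174 were called, and with the length trend removed 890 and 303; the cause was not tested. The other alternatives gave 773 to 1026 higher and 412 to 700 lower, the 700 with quantile normalization. In the fit with the replicate block, 1022 were higher and 550 lower (with 12 libraries 1020 and 517), and 6 of the 12 libraries correlated best with their own number. The distance between the groups was 67.8 to 79.9 under other scalings and prior counts, 39.6 over the 500 most variable genes, 122 with unit variance and 63.6 to 72.5 with a library left out, each at the smallest p its permutations allow, 0.00216. With the replicate block a sign-flip permutation gave p = 0.03125, likewise the smallest that its 64 sign flips can give.

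Of 132 called genes named, 96 could be tested in all 26 alternatives, since the filter of at least 10 counts in every library removes the low ones. Of the 96, 31 were called in all 26 and 55 in all but glmTreat, which ended 81 of the 132 calls. Leaving out Wnt5a replicate 1 ended 22 and replicates 1 and 5 together 50, quantile normalization 8, the length trend 18 and the block 1 (Zg16). None of them changed direction. Of 12 named genes not called, 3 were called under some alternative, Ly6a under 8, Il33 under 4 and Lyz1 under 4. Lgr5 changed sign without QCM replicate 5 (−0.038, in a range of −0.038 to 0.19 over single libraries left out) and with the length trend removed (−0.096), and Fzd7 without Wnt5a replicates 1 and 5 (0.042). Genes under about 1 CPM in QCM, such as Add2, Cym and Irx3, have imprecise fold changes at this depth.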
